A study of Mus musculus with 12 samples.

Results

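The ATF6a dependence of the miRNA response to tunicamycin was examined as a difference of differences. For each miRNA, the mean of the 12 h and 24 h arrays minus the untreated arrays was taken in wild type fibroblasts, and the same quantity in ATF6a knockout fibroblasts was subtracted from it. The description covers the 57 of 611 mouse miRNAs on the array that had a probe well above background, by the scanner software's flag, in over 0.5 of its spots on all 12 arrays. The miRNAs were chosen by that flag alone, not by the size of the difference. Tests were fitted over all 175 miRNAs with enough signal in at least 1 group, which were 174 mouse miRNAs and 1 viral miRNA.

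The cells were mouse embryonic fibroblasts of C57BL/6 background, labelled ATF6aWT or ATF6aKO. Cells of both genotypes were studied untreated and after 12 h or 24 h of tunicamycin at 2 ug/mL, which makes 6 groups of 2 arrays. The series' design text describes independent experiments for the replicates, but the number of cell lines or embryos behind each genotype is not given in the sources used here. ATF6a itself has no probe on a miRNA array, which left the ATF6aWT and ATF6aKO labels unchecked by these values, and an effect of the knockout cannot be told apart from another difference between the wild type and knockout cells.

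Tunicamycin blocks N-linked glycosylation, so that unfolded glycoproteins accumulate in the endoplasmic reticulum and the unfolded protein response starts. ATF6a is one of its sensors: it travels to the Golgi, is cleaved there, and its released fragment enters the nucleus and switches on chaperone and degradation genes beside the arms run by IRE1 and PERK. miRNAs are short RNAs that pair with messenger RNAs mainly through their seed, bases 2 to 8, and several have been linked to these stress arms.

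Mature sequences were found for 47 of the 57 miRNAs in RefSeq (GRCm38.p6). The 10 others were miR-23b, miR-151-5p, miR-720, miR-669f, miR-466f-3p, miR-467a*, miR-709, miR-199b*, miR-140 and miR-34c. The first set shows members that stood at the ends of the ranking, with the seed in capitals and all sequences from 5′ to 3′.
miR-1224: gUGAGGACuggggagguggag
miR-214: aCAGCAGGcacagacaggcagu
miR-23a: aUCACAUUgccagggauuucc
miR-34a: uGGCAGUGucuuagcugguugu
miR-21: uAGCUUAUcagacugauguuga
The second set shows miRNAs that share a seed, since some of these differed in the sign of the difference under the scaling used here and others did not.
let-7a: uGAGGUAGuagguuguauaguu
let-7c: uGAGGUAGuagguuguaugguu
let-7e: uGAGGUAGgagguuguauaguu
miR-25: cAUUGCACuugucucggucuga
miR-92a: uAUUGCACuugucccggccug
miR-301a: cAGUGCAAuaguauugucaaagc
miR-130a: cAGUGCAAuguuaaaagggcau
miR-20a: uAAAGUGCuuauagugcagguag
miR-20b: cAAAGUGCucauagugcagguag

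By position, miR-1224 lies at chr16:20604452-20604472 (+) within the span of the protein-coding gene Vwa5b2, and miR-214 at chr1:162223438-162223459 (+) within the spans of Dnm3 and the long non-coding RNA gene Dnm3os. miR-23a lies at chr8:84208563-84208583 (+) and miR-34a at chr4:150068473-150068494 (+), both outside the span of any other gene in the RefSeq table. miR-21 lies at chr11:86584120-86584141 (-) within the span of Vmp1. The table of gene spans holds neither strand nor exons, so exon or intron was not assigned.

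All values are log2 of background-subtracted signal divided by the 75th percentile, on each array, of the 87 probes that every array measured well above background, so that 1 unit is a factor of 2. A negative difference means that the response was lower in wild type than in knockout cells. According to the headers of the scanner files, all untreated arrays were on slide 1 and all treated ones on slide 2, while the wild type arrays lay in row 1 and the knockout arrays in row 2 of both slides. Each of 4 scanning runs held both genotypes: runs 1 and 2 held untreated replicates 1 and 2, and runs 3 and 4 treated replicates 1 and 2. Between 85 and 171 miRNAs were well above background per array. Counting any probe of a miRNA on each array, a looser rule than the one that chose the members, 6 of 12 miRNAs listed as typical of mesenchymal cells were well above background on all arrays, 5 on some and 1 on none. Among miRNAs of pluripotent cells 1 of 11 listed, miR-294, was so on 2 arrays, and among those of muscle 1 of 4, miR-206, on 3 arrays. None of those listed for blood cells (4), epithelium (7), neurons (3), endothelium (2) and hepatocytes (1) was so on any array.

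With adjustment over all 175 miRNAs tested, no member passed the threshold on the averaged difference without a block. With the scanning run as a block, miR-23b and miR-214 passed it. An adjustment over the members alone was not made with that block. The difference was positive for 26 and negative for 31 of the 57, with a median of -0.06, quartiles of -0.31 and 0.31 and a range from -1.06 to 0.61. It was under 0.5 in size for 47 members and over 1 for 2 of them, miR-1224 and miR-23b. Over all 175 miRNAs tested the median was -0.21, with 60 positive and 114 negative. These signs and sizes depend on where the scaling sets 0: with arrays scaled on all probes every member's difference was higher by 0.76 to 0.80, which gave 55 positive and 2 negative members, a median of 0.75 and 15 members under 0.5 in size. Gaps between members were little affected, and the 2 negative members were again miR-1224 and miR-23b. All signs given below are those of the scaling on 87 probes.

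In the limma fit without a block, 0 of 57 members had an adjusted p under 0.05 for the averaged difference, against 10.3% of all miRNAs tested (18 of 175, with 1.14% positive and 9.14% negative), and 8 of 57 had an unadjusted p under 0.05, against 29.1%. All 18 called miRNAs had a used probe at the floor, the value given to the dimmest signals, on at least 1 array. With the scanning run as a block, 2 of 57 members were called, against 13.1% of all tested, and 12 of 57 had an unadjusted p under 0.05, against 34.3%. The called members were miR-23b and miR-214. The 2 members are a smaller share than that of all tested, where 20 of the 23 calls had a used probe at the floor. Of those 23 calls, 21 were of miRNAs other than the members, and they entered the same adjustment.

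The standard error of the averaged difference had a median of 0.26 without and 0.21 with the run block, and it was smaller with the block for 44 members. With the block, the unadjusted 95% interval lay within 1 log2 unit of 0 for 44 members and reached beyond it for the other 13. The ranking of all 57 differences shows where the block narrowed the error.

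**Figure D1:**
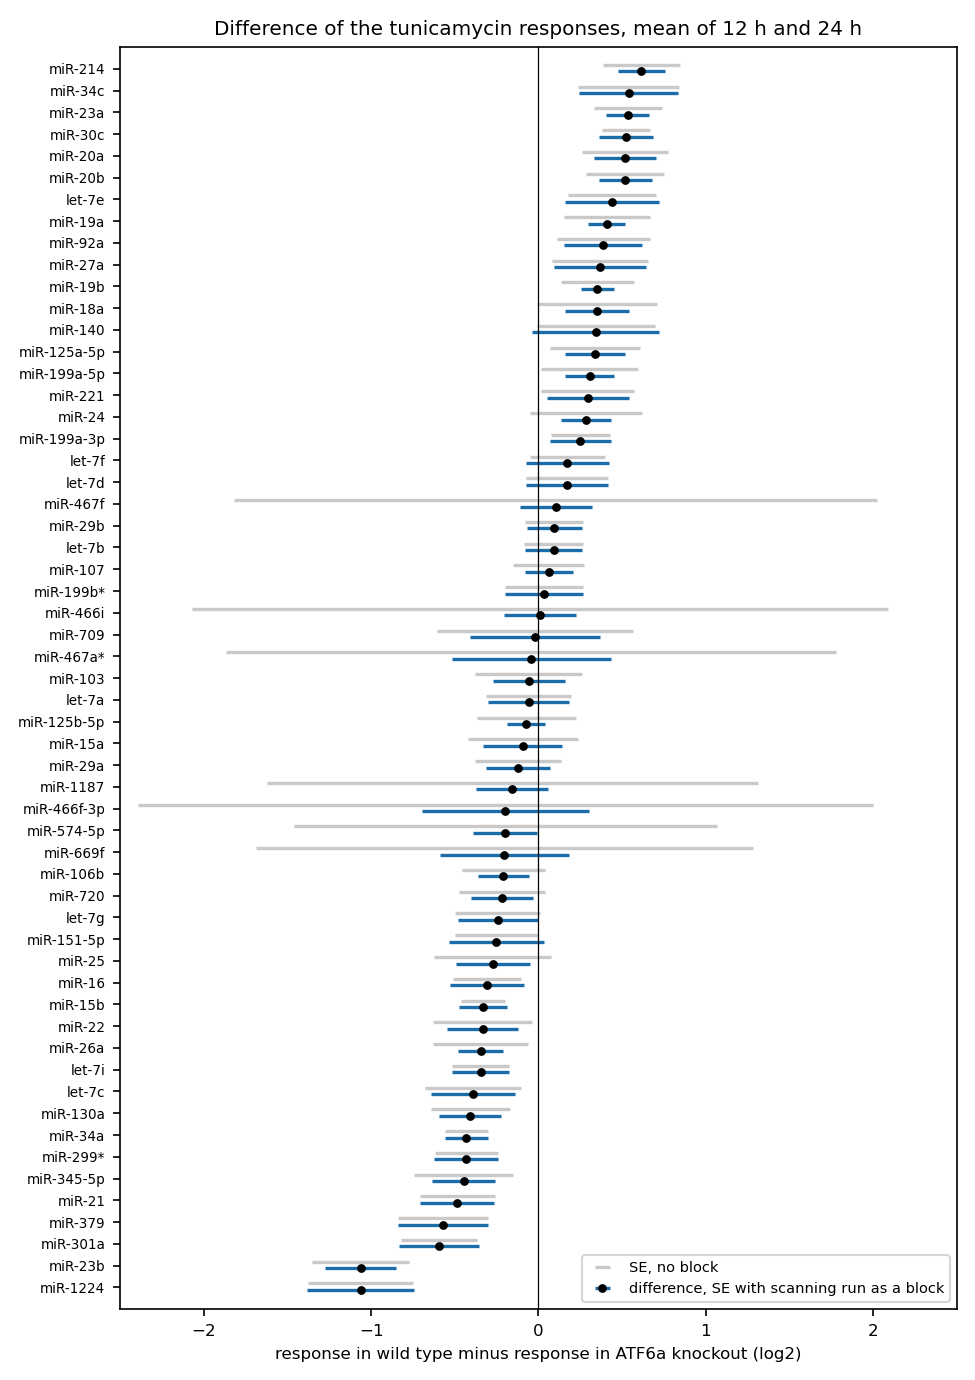
Difference of the tunicamycin responses (wild type minus knockout, log2, mean of 12 h and 24 h) for 57 miRNAs, sorted. Black points are the differences, grey bars 1 SE on each side without a block and blue bars 1 SE with the scanning run as a block; 7 miRNAs have grey bars of 1.26 to 2.19, and miR-23b and miR-1224 stand lowest at -1.06.

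The 7 members with standard errors over 1 were miR-466f-3p, miR-466i, miR-467a*, miR-467f, miR-669f, miR-574-5p and miR-1187. miR-466, miR-467 and miR-669 are mouse families of repeated sequence, many of them encoded in an intron of Sfmbt2. Of the members here, miR-466i lies within the span of Cdk13 on chromosome 13 and miR-467f within that of Fxr2 on chromosome 11. No sequence was found for miR-466f-3p, miR-467a* and miR-669f, so they were not placed. On treated arrays, replicate 2, scanned in run 4, exceeded replicate 1, scanned in run 3, by 1.65 to 4.44 for these 7. This gap was present in both genotypes. The averaged differences of these 7 were small, from -0.20 to 0.10. Their standard errors went from between 1.26 and 2.19 without the block to between 0.19 and 0.50 with it. miR-467a* was the 1 member with values at the floor, on 2 untreated arrays.

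Over all 57 members, the median move between replicates was largest in treated knockout cells, but single members moved in other groups too. In wild type cells at 12 h, for example, miR-709 went from 2.00 to 1.04 and miR-140 from -1.60 to -0.83. A median near 0 can hold moves in both directions. In knockout cells at 12 h the median of replicate 2 minus replicate 1 was -0.57, and 48 of 57 members were lower in replicate 2. At 24 h in knockout cells the same median was -0.23, while in the other 4 groups it lay between -0.02 and 0.04. The genotype difference within a run moved with it: its median over the members was -0.27 in run 3 and 0.16 in run 4 at 12 h. Leaving out either of the 12 h knockout arrays moved the averaged differences in opposite directions. With the run block, the median over the members went from -0.06 to 0.06 without replicate 1 and to -0.11 without replicate 2. Over all miRNAs tested the median went from -0.21 to -0.17 and to -0.23. Such a fit has a lone array in that group. The spread then comes from the other groups, and the lone array is assumed to vary like them. The counts called in these fits are given at the end, with those over all miRNAs tested.

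**Figure D2:**
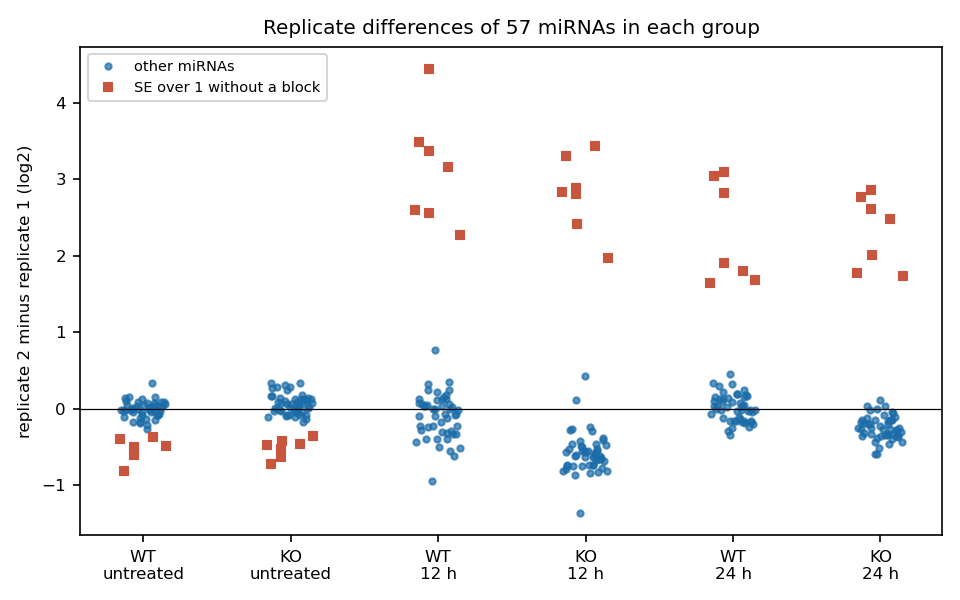
Replicate 2 minus replicate 1 (log2) for each of 57 miRNAs in the 6 groups (WT, wild type; KO, knockout), with sideways scatter for legibility. Red squares are the 7 miRNAs with a standard error over 1 without a block, 1.65 to 4.44 higher in replicate 2 of every treated group, and the blue points of knockout cells at 12 h lie mostly below 0.

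Signs were compared between the replicates as the value within each pair of runs, which joins treated and untreated arrays by replicate number. The averaged difference had the same sign in both replicates for 36 of 57 members (63.2%), against 72% of all miRNAs tested. Across the 57 members the replicate 1 and replicate 2 differences had a Pearson r of 0.74 and a Spearman rho of 0.73, as a description; each array's scaling is shared by all members on it. The 4 treated genotype differences lay all above the 2 untreated ones for 14 members, against 17.1% of all miRNAs tested, and all below them for another 14, against 37.7%. Together these are 49.1% of members and 54.9% of all tested.

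miR-23b, encoded with miR-27b and miR-24 in a cluster separate from that of miR-23a, had the smallest p of the members for the averaged difference. In wild type cells its level was -1.03 and -1.04 untreated, -2.32 and -2.72 at 12 h, and -2.26 and -2.28 at 24 h. In knockout cells it was -0.65 and -0.57 untreated, -0.74 and -1.49 at 12 h, and -0.60 and -0.81 at 24 h. All 4 treated wild type arrays lay below both untreated ones, by 1.36 on average, while every treated knockout array was higher than every treated wild type array and 1 of them, at 12 h, stood apart from the rest. The knockout response averaged -0.30, and its treated and untreated arrays overlapped.

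The averaged difference of miR-23b was -1.06 ± 0.29 (SE, adjusted p = 0.057) without a block and -1.06 ± 0.21 (adjusted p = 0.0373, 95% interval -1.59 to -0.53) with the run block in limma. It was -1.24 from replicate 1 and -0.88 from replicate 2. At 12 h the difference was -0.98 ± 0.34 (limma adjusted p = 0.145, and 0.0828 with the run block), and at 24 h it was -1.14 ± 0.34 (0.0777, and 0.0485 with the run block). With the block and 1 array left out, the averaged difference ran from -1.20 to -0.93, and both ends came from fits without a knockout array at 12 h. Over 17 other settings it ran from -1.26 to -0.26, with -0.57 under normexp and -0.26 with scaling on all probes, and was past the threshold in 4 of them, with limma adjusted p-values from 0.00625 to 1.00. It rested on 1 probe.

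miR-1224, a miRNA cut from a short intron and rich in G and C (66.7% of its bases), had the highest responses among the members in both genotypes outside the replicate-dependent families. In wild type cells its level was -3.02 and -3.04 untreated, -1.09 and -1.19 at 12 h, and -0.87 and -0.55 at 24 h. In knockout cells it was -3.41 and -3.08 untreated, -0.59 and -1.38 at 12 h, and 0.92 and 0.74 at 24 h. The genotypes interleaved at 12 h, whereas at 24 h both knockout arrays exceeded both wild type arrays by more than 1 unit.

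The 24 h difference of miR-1224 was -1.75 ± 0.36, with an adjusted p of 0.0214 in limma and 0.0485 with the run block. It was the 1 member of 57 called at 24 h without the block. In that fit 11.4% of all miRNAs tested were called (2.29% positive and 9.14% negative). Unadjusted p-values in it were under 0.05 for 5 members, against 26.3% of all tested. With the run block 2 members were called at 24 h, miR-1224 and miR-23b, against 9.14% of all tested, and 11 had an unadjusted p under 0.05, against 30.3%. At 12 h the difference of miR-1224 was -0.37 ± 0.36 (limma adjusted p = 0.605); the change of the difference from 12 h to 24 h was not tested. The averaged difference was -1.06 ± 0.31 (adjusted p = 0.0699, and 0.0794 with the run block). Its 2 probes gave averaged differences of -1.05 and -1.07. The 24 h value ranged from -1.82 to -0.87 over 17 other settings and was past the threshold in 7 of them, and -0.87 was the value where arrays were scaled on all probes. The limma adjusted p ran from 6.9e-05 to 0.996 over these settings.

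At 12 h, the time for which the design text says ATF6a-dependent miRNAs were sought, 0 of 57 members were called by limma, with or without the run block, against 9.14% of all tested without it (0.571% positive and 8.57% negative) and 6.86% with it. Unadjusted p-values were under 0.05 for 5 members without and 7 members with the block, against 21.1% and 26.3% of all tested.

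miR-214, which shares the Dnm3os transcript with miR-199a, had the most positive averaged difference. In wild type cells its level was -0.12 and -0.26 untreated, -0.75 and -0.93 at 12 h, and -0.94 and -1.10 at 24 h. In knockout cells it was 0.06 and 0.04 untreated, -0.96 and -1.52 at 12 h, and -1.23 and -1.50 at 24 h. Untreated knockout arrays were the higher ones and treated knockout arrays the lower ones, with no overlap between genotypes at any time. The response was -0.74 in wild type and -1.35 in knockout cells.

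The difference of 0.61 for miR-214 had an SE of 0.23 (adjusted p = 0.12) without and 0.14 (adjusted p = 0.0486, 95% interval 0.26 to 0.97) with the run block in limma. It was 0.43 from replicate 1 and 0.80 from replicate 2, and 0.64 and 0.58 from its 2 probes. With the block and 1 array left out it ran from 0.53 to 0.70, and both ends came from fits without a knockout array at 12 h. Over 17 other settings it ran from 0.51 to 1.42, the highest with scaling on all probes, and was past the threshold in 2 of them. The other miRNAs listed with it also had positive differences, 0.31 for miR-199a-5p, 0.25 for miR-199a-3p and 0.03 for miR-199b*, none past the threshold.

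miR-23a, a paralog of miR-23b, stood at the other, positive end. It is transcribed with miR-27a and miR-24 on chromosome 8. Its wild type levels were -0.23 and -0.21 untreated, 0.21 and 0.14 at 12 h, and 0.43 and 0.24 at 24 h. Its knockout levels were 0.08 and 0.21 untreated, 0.22 and -0.19 at 12 h, and 0.34 and -0.03 at 24 h. The treated wild type arrays all exceeded the untreated ones, and the knockout arrays overlapped across treatment.

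The averaged difference of miR-23a was 0.53 ± 0.20 (limma adjusted p = 0.128, and 0.0518 with the run block). The neighbours miR-27a and miR-24 had 0.37 ± 0.29 and 0.28 ± 0.33. miR-24 is also encoded beside miR-23b on chromosome 13, and the array does not separate its copies. Of the 4 members listed for the miR-23, miR-27 and miR-24 group, 3 were thus positive and miR-23b alone negative. No sequence was found for miR-23b, and whether the probes separate it fully from miR-23a was not tested.

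**Figure D3:**
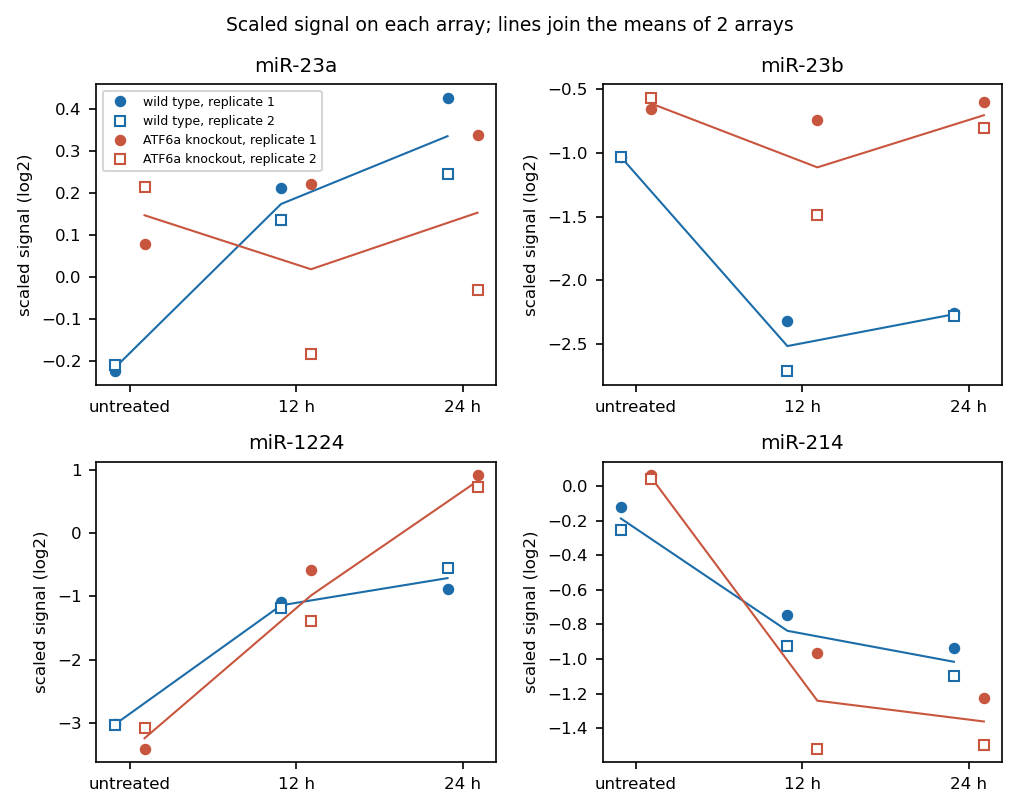
Scaled signal (log2) of miR-23a, miR-23b, miR-1224 and miR-214 on each of 12 arrays, untreated and after 12 h and 24 h of tunicamycin; blue is wild type and red knockout, filled circles are replicate 1, open squares replicate 2, and lines join the means of 2 arrays. The vertical scales differ between panels; wild type miR-23b drops from about -1.04 to -2.72 at the lowest, while 24 h knockout arrays of miR-1224 reach 0.92.

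Other members at the negative end were miR-301a (-0.59 ± 0.23), miR-379 (-0.57 ± 0.27), miR-21 (-0.48 ± 0.22), miR-345-5p (-0.45 ± 0.30), miR-299* (-0.43 ± 0.19) and miR-34a (-0.43 ± 0.13), none past the threshold with or without the run block. miR-21, among the most abundant fibroblast miRNAs, was at 4.60 and 4.56 in untreated wild type cells and averaged 3.55 at 12 h and 3.56 at 24 h. In knockout cells it was at 4.17 and 4.33 untreated and averaged 3.71 at 12 h and 3.70 at 24 h. The treated arrays were below the untreated ones in both genotypes, and the 4 treated genotype differences were below the 2 untreated ones. Replicate 1 gave -0.84 and replicate 2 gave -0.13 for miR-21.

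miR-34a, a p53-induced miRNA that has been linked to the IRE1 and PERK arms, had the smallest standard error of these. Its wild type levels were -1.16 and -1.12 untreated, -2.06 and -1.99 at 12 h, and -1.59 and -1.55 at 24 h. Its knockout levels were -1.14 and -1.13 untreated, -1.41 and -1.69 at 12 h, and -1.08 and -1.27 at 24 h. Untreated arrays of the genotypes were within 0.1 of each other, and all 4 treated wild type arrays were below the knockout arrays of the same time. The limma adjusted p was 0.0699, and 0.0794 with the run block. The relative miR-34c stood higher, at 0.54 ± 0.30 (adjusted p = 0.298), with 0.16 from replicate 1 and 0.92 from replicate 2.

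miR-30c, of a family known for restraining fibrotic gene expression, had the second smallest p without a block for the averaged difference. Its wild type levels were -3.12 and -3.16 untreated, -2.95 and -2.71 at 12 h, and -2.61 and -2.49 at 24 h. Its knockout levels were -2.78 and -2.71 untreated, -2.97 and -2.86 at 12 h, and -2.59 and -2.85 at 24 h. Wild type arrays were the lower ones untreated, and at 24 h the genotypes overlapped. The difference was 0.52 ± 0.14 (limma adjusted p = 0.0583, and 0.0794 with the run block), but -0.03 from the scanner software's summed signal. It was among the members closest to the detection limit.

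**Figure D4:**
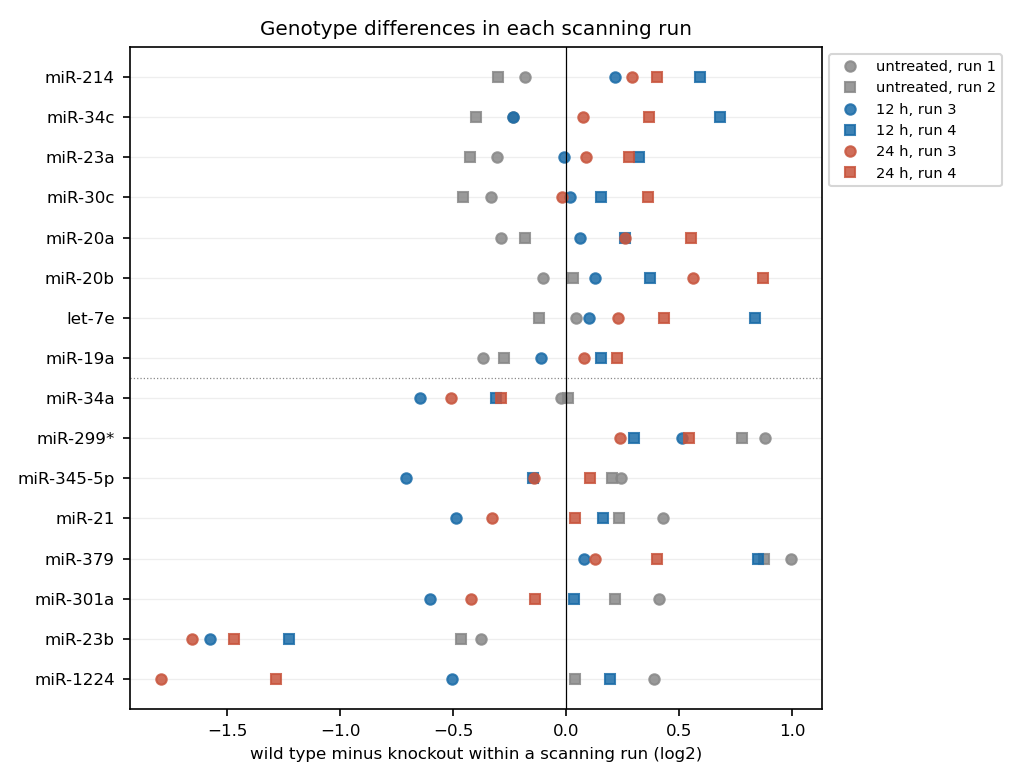
Wild type minus knockout (log2) within each scanning run for the 8 most positive (above the dotted line) and 8 most negative members. Grey is untreated, blue 12 h and red 24 h, circles are replicate 1 and squares replicate 2; for miR-23b the 4 treated points lie near -1.23 to -1.65 and the grey ones near -0.37 and -0.47.

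By the 6 genotype differences, 1 for each pair of arrays, the members most like miR-23b were miR-34a (r = 0.92), miR-301a (r = 0.91) and miR-379 (r = 0.88). These correlations are over 6 points that share arrays and scaling, and they describe the pattern only.

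The members of the oncogenic cluster that runs from miR-17 to miR-92a, driven by Myc and E2F, and of its paralogs showed mostly positive differences. Of 8 members listed, 6 were positive and 2 negative (all 8 positive with scaling on all probes), with a median of 0.37 beside -0.06 for all 57 members, and none was called with or without the run block. The 5 that lie within 630 bases on chromosome 14, from miR-18a at chr14:115043867 to miR-92a at chr14:115044496, were all positive, from 0.35 to 0.52. miR-20a was 0.52 ± 0.26 and miR-20b, of the paralogous cluster on chromosome X, was 0.52 ± 0.23. miR-19a and miR-19b were 0.41 ± 0.25 and 0.35 ± 0.22, with limma adjusted p-values of 0.0663 and 0.0725 with the run block.

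For miR-20b, the wild type levels were -2.82 and -2.72 untreated, -1.83 and -2.11 at 12 h, and -1.80 and -1.81 at 24 h. The knockout levels were -2.72 and -2.75 untreated, -1.95 and -2.48 at 12 h, and -2.36 and -2.68 at 24 h. The genotypes overlapped untreated, and at 24 h both wild type arrays were above both knockout arrays. From the summed signal the difference was -0.11. miR-20a and miR-20b differ by C1U and C10U, counted from the 5′ end of miR-20b, so probes may not separate them fully; this was not tested.

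The remaining paralogs, miR-106b and miR-25 in the span of Mcm7, had differences of -0.21 ± 0.25 and -0.27 ± 0.35. miR-25 and miR-92a share the seed AUUGCAC printed above, yet miR-92a stood at 0.39 ± 0.28. The difference of miR-25 was 0.49 with the summed signal and 0.53 with scaling on all probes.

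The 8 let-7 miRNAs, which restrain growth regulators such as Ras and Hmga2, split evenly into 4 positive and 4 negative differences, from -0.39 for let-7c to 0.44 for let-7e, none past the threshold. With scaling on all probes all 8 were positive, from 0.41 to 1.24. let-7e was at -0.67 and -0.55 in untreated wild type cells and from 0.04 to 0.42 on the treated arrays. In knockout cells let-7e was at -0.72 and -0.43 untreated and from -0.69 to -0.02 treated. Treated wild type arrays were above untreated ones, and the knockout arrays overlapped. let-7c was -0.39 ± 0.29, and let-7a, which differs from let-7e by U9G alone as counted from the 5′ end of let-7a, was -0.06 ± 0.26. Whether probes separate such close let-7 sequences fully was not tested.

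Of 9 seeds carried by more than 1 member, 26 members in all, 3 had members of one sign only and 6 had both signs. The 3 were those of miR-15a, miR-15b and miR-16 (-0.33 to -0.09), of miR-130a and miR-301a (-0.41 and -0.59), and of miR-19a and miR-19b. With scaling on all probes all 9 seeds and all 13 clusters below were of one sign. Of 13 genomic clusters with gaps of at most 10000 bases, 10 held members of one sign; miR-16, miR-19b, miR-92a and the miR-199a pair are encoded at more than 1 locus and count in more than 1 cluster. Beside the chromosome 14 cluster these included miR-23a, miR-27a and miR-24 on chromosome 8, and miR-379 with miR-299* of the imprinted Dlk1-Dio3 region on chromosome 12 at -0.57 and -0.43. The GC content of the mature sequence had a Pearson r of -0.06 with the difference over 47 members, and the mean level 0.01 over 57.

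Among miRNAs linked to the unfolded protein response, 8 of the 20 listed were members. Of these, 3 had positive and 5 negative differences with a median of -0.10, beside -0.06 for all members. With the run block miR-214 alone of the 8 was called, where 13.1% of all miRNAs tested were called. With scaling on all probes all 8 were positive. Next to miR-214, miR-34a and miR-199a-5p, miR-221 (0.29 ± 0.28), miR-29a (-0.12 ± 0.26), miR-125b-5p (-0.07 ± 0.30), miR-106b and miR-25 did not pass the threshold. miR-125b-5p was at 1.54 and 1.49 in untreated wild type cells with a response of -0.82, and at 1.56 and 1.49 in untreated knockout cells, with a response of -0.74. All treated arrays lay below the untreated ones in both genotypes, and the 95% interval of its difference with the run block was -0.36 to 0.21.

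Across all members, treated arrays lay fully above untreated ones for 16 and fully below for 20 in wild type cells, against 14.3% and 48.6% of all miRNAs tested. In knockout cells they lay above for 8 and below for 13, against 8.57% and 28%. No member lay beyond its untreated arrays in opposite directions in the 2 genotypes, and among all miRNAs tested the share was 0%. The difference between these counts was not tested, and the spread of knockout arrays at 12 h, given above, moves with it.

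**Figure D5:**
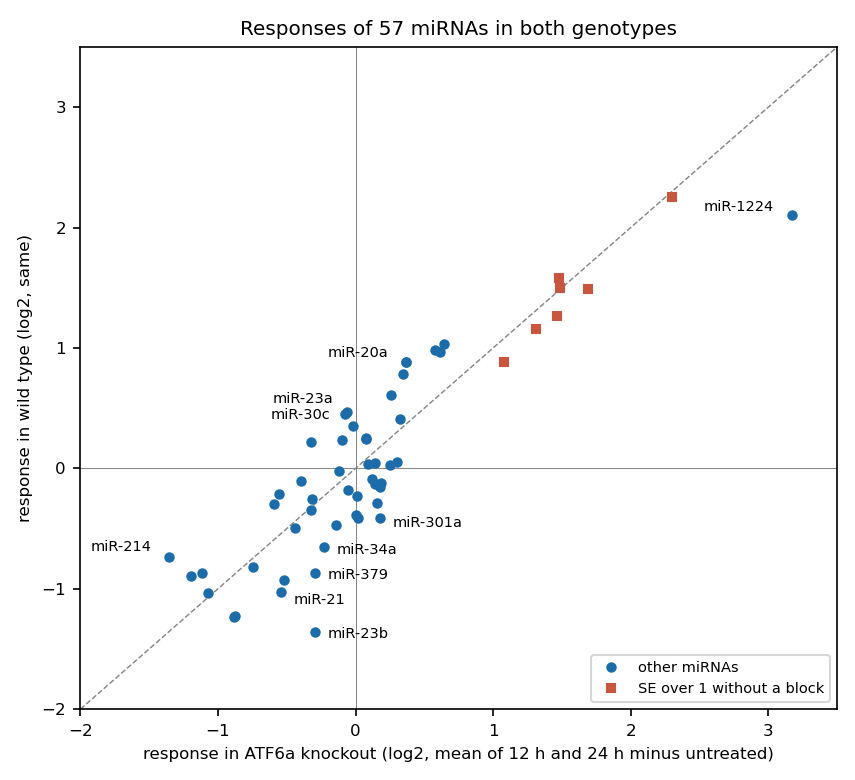
Response in wild type (vertical) against response in knockout (horizontal), both in log2 as the mean of 12 h and 24 h minus untreated, for 57 miRNAs; the dashed line marks equal responses. Red squares are the 7 members with a standard error over 1 without a block; miR-23b (-1.36 against -0.30) and miR-1224 (2.11 against 3.17) lie farthest below the line.

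Of the 57 members, 30 had a pair of used probes, and in 27 of these both probes gave the same sign. The median gap between the probes was 0.09, and the largest was 0.41 for miR-669f. The members nearest the detection limit were miR-345-5p (lowest share of spots well above background 0.571), miR-199b*, miR-30c and miR-466f-3p (0.6 each). Just outside were miR-193 (difference 0.18), miR-30a (-0.38), miR-31 (0.56) and miR-669a (-0.28) at 0.5, and miR-28 (-0.30) at 0.4.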

How the data were processed

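The submitters' processing notes name Agilent Feature Extraction 10.7.1.1. The deposited spot intensity is background-subtracted and has no scaling between arrays, as the file headers show. Values in the series table, also deposited, are log2 of the summed signal. Each array had 13715 spots; the 715 controls and 302 to 667 outliers were removed, and 0 were saturated. Spots were averaged into 1857 probes. Arrays were scaled to the 75th percentile of 87 probes, floored at 0.0309 and set to log2. A miRNA's value was the mean of its used probes: those well above background on all arrays for members, and on both arrays of at least 1 group for other miRNAs.

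limma 3.58.1 in R 4.3.3 (lmFit, eBayes, 6 group means, 6 residual and 1.17 prior degrees of freedom, or 4 and 1.51 with the run block) was followed by Benjamini-Hochberg adjustment over 175 miRNAs at 0.05. Scripts were tested on simulated arrays. With 2 arrays a group, p-values measure only the spread between these arrays, and their number limits the precision. Over all members, replicate 2 minus replicate 1 correlated positively between treated groups (r 0.93 to 0.98) and between untreated groups (0.86). Between treated and untreated groups it correlated negatively (-0.83 to -0.76), so the fits without a block and with the run block did not pair them by replicate number. The values given from replicate 1 or replicate 2, and the replicate block among the alternatives, did use that pairing. These correlations include the 7 members with a standard error over 1 without a block, which rose by 1.65 to 4.44 in every treated group. Whether the other members share such a deviation was not tested. miR-140, for example, rose in wild type and fell in knockout cells at 12 h. Slide goes with treatment and slide row with genotype, so only additive effects of either cancel in the difference. Alternatives covered scaling, background correction, summaries, filters, floor, blocks, array weights and each array left out; those that combine the run block with another choice were chosen after seeing the data.

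The members, the miRNA lists and the tests were chosen with earlier results of these data known. Named miRNAs are those past the threshold at any time, the 8 largest differences each way, the listed stress-linked miRNAs and the 3 most like the miRNA with the smallest p for the averaged difference; others were named after their values were seen. Array names were matched to current names by hand.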

Additional observations from a re-analysis of the deposited data

Results flagged for a closer look

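The 24 h response of miR-1224 differed between the genotypes in the test of the difference itself, by -1.75 log2 units (wild type minus knockout, limma adjusted p = 0.0214). The knockout arrays at 24 h stood at 0.92 and 0.74 and the wild type arrays at -0.87 and -0.55. The call held in 6 of 12 fits that left out 1 array, and in 3 of 12 with the run block.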

How the results depend on the processing

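Counts are of members past an adjusted p of 0.05 in limma. For the averaged difference the count of 0 became 1 with probes detected in at least 1 group and with the replicate block, 2 with the run block, 8 with array weights and 1 with the run block and normexp. Without 1 array it was 0 to 12 (0 to 14 with the run block), at 12 h 0 to 9 (0 to 6), and at 24 h 0 to 9 (0 to 10). Among these, every count over 2 came from leaving out an array of knockout cells at 12 h, replicate 1 or 2; with the run block these, which leave 1 array in that group, gave 11 and 14 averaged, 4 and 6 at 12 h, and 10 and 10 at 24 h. At 12 h the count stayed at 0 in all other settings. At 24 h the count of 1 became 3 with probes detected in at least 1 group, 2 with the run block, 12 with array weights, and 0 when scaled on all probes, with quantile normalization, normexp, the summed signal, the deposited table, members alone or no filter, and with the run block joined to scaling on all probes, quantile normalization or the summed signal; unadjusted p-values were under 0.05 for 0 to 5 members without and 3 to 19 with the block in these.

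Over all miRNAs tested, the counts of 18, 16 and 20 (both times averaged, 12 h, 24 h) became 0 with scaling on all probes, normexp, the summed signal, the deposited table and members alone, and with the run block joined to scaling on all probes or the summed signal. They became 2, 0 and 0 with quantile normalization, 7, 6 and 9 with the floor halved, 45, 9 and 55 with array weights, 1, 0 and 1 with the run block and normexp, and 10, 2 and 2 with the run block and quantile normalization; at 24 h median scaling gave 13. Without 1 array they ran from 13 to 48, 10 to 38 and 11 to 47 (with the run block 6 to 58, 0 to 31 and 0 to 43). Leaving out knockout replicate 1 or 2 at 12 h under the run block gave 51 and 58 for the average and 31 and 26 at 12 h.

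Scaling on all probes, with or without the run block, moved the median difference of all tested from -0.21 to 0.38 and of members from -0.06 to 0.75, and turned miR-301a to 0.21, miR-379 to 0.23, miR-21 to 0.32, miR-345-5p to 0.32, miR-299* to 0.37, miR-34a to 0.37, miR-125b-5p to 0.73, miR-106b to 0.59, miR-25 to 0.53 and miR-29a to 0.68. The summed signal turned miR-30c to -0.031, miR-20b to -0.11 and miR-25 to 0.49, with or without the run block; the deposited table turned miR-20b to -0.029 and miR-25 to 0.58; quantile normalization turned miR-106b to 0.0012. Replicate 2 alone gave 0.018 for miR-125b-5p and 0.039 for miR-29a. Leaving out 1 array gave -0.21 to 0.065 for miR-125b-5p and -0.29 to 0.050 for miR-29a, and 0.0062 for miR-29a with the run block and without knockout replicate 1 at 12 h. The causes were not tested. miR-23b, miR-1224, miR-214 and miR-23a kept their sign in all 17 processing settings and with each array left out. Their ranges over the settings were -1.26 to -0.26, -1.10 to -0.26, 0.51 to 1.42 and 0.40 to 1.34. Of the 17, the blocks, array weights, members alone and no filter left these values unchanged. Those that join the run block to another choice repeat that choice's value. The other 8 changed scaling, background correction, summaries, the probes used or the floor. Scaling on all probes shifts members nearly alike; over the 7 other processing settings 42 of 57 members kept their sign.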
